A study of Mus musculus with 12 samples.

Results

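Expression of the heat shock proteins and their co-chaperones was examined in the adrenal gland of male C57Bl/6J mice at 21 weeks of age. The genes were all those whose single symbol in the platform's probe table begins with Hspa, Hspb, Hspd, Hspe, Hsph or Hsp and a digit, or with Dnaja, Dnajb or Dnajc and a digit. This gave 68 of the 16244 genes measured, 27 with an Hsp symbol and 41 with a Dnaj symbol. Each was taken at its probe set with the highest mean, all 68 had a group mean of at least 6 on the log2 scale in 1 or more groups, and all 68 were among the 15900 genes tested. By family there were 10 members of the Hsp70 family, 3 of the Hsp110 family, 2 of the Hsp90 family, 2 subunits of the mitochondrial chaperonin, 8 small heat shock proteins, 4 DNAJA, 11 DNAJB and 26 DNAJC proteins, and 2 proteins named for binding them, Hspbap1 and Hspbp1. Symbol alone chose them among the deposited probe sets, apart from the minimum signal, which removed none. All 26533 deposited probe sets reached 6 on at least 1 array. Genes of these families dimmer than that on every array could therefore not enter.

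The controls (CON) received neither compound. The CGP group received CGP 39551, which blocks glutamate at the NMDA receptor by competition, at 5 mg per kg body weight in the drinking water from conception to postnatal day 28. Mice of the ASP group drank the sweetener aspartame at 46 mg per kg, starting in utero, and those of the ASP+CGP group were exposed to both. RNA of the mice of each group was combined into 1 pool, and each of the 4 pools was hybridised to 3 Affymetrix arrays, giving 12 arrays. P-values therefore measure the spread between arrays of the same pool and carry no information on the spread between mice. The values are log2 signals, and levels of different probe sets are not compared with each other.

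Heat shock proteins of the Hsp70, Hsp110 and Hsp90 families bind unfolded or partly folded proteins and release them in cycles driven by ATP. J proteins, the Dnaj genes, deliver clients to Hsp70 and start its ATP hydrolysis, and they take the machine to the cytosol, the endoplasmic reticulum (ER), mitochondria, endosomes or clathrin coats. The small heat shock proteins hold clients without ATP. In heat or proteotoxic stress the factor HSF1 induces a subset of these genes, whereas the unfolded protein response of the ER induces another, and Hsp90 with its co-chaperones keeps steroid receptors ready for hormone.

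The promoters of a few members show the division into stress-inducible classes in sequence. RefSeq promoter windows (GRCm38.p6, 250 bases before to 50 bases after the start) were at hand for 56 of the 68 members. The element bound by HSF1 is built of GAA units in alternating orientation, and a pair of units reads GAANNTTC or, the other way about, TTCNNGAA. The ER stress element consists of CCAAT, 9 bases of any kind and CCACG. Both were searched on both strands, and capitals mark every match in the windows below. Shown are the 250 bases before the start of Hspa1a, the inducible cytosolic Hsp70, of Hspe1, whose window overlaps that of its neighbour Hspd1 on the opposite strand, and of 3 ER chaperones. In order they lie at chr17:34972157-34972406 (minus strand), chr1:55087898-55088147 (plus strand), chr2:34771840-34772089 (plus strand), chr10:86705445-86705694 (minus strand) and chr14:118937682-118937931 (plus strand).
Hspa1a: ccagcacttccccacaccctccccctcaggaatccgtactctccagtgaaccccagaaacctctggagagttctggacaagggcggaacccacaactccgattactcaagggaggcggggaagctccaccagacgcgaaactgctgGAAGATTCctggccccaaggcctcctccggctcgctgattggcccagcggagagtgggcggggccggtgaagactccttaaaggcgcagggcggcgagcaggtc
Hspe1: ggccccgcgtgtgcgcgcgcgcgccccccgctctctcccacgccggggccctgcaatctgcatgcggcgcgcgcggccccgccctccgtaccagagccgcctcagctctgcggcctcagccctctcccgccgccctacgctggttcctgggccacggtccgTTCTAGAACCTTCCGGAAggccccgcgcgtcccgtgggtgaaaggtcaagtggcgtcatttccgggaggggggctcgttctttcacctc
Hspa5: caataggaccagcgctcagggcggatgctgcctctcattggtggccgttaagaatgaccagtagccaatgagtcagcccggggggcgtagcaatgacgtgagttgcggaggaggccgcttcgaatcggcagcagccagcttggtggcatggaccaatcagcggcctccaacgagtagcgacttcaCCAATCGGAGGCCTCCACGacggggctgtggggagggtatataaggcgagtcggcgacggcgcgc
Hsp90b1: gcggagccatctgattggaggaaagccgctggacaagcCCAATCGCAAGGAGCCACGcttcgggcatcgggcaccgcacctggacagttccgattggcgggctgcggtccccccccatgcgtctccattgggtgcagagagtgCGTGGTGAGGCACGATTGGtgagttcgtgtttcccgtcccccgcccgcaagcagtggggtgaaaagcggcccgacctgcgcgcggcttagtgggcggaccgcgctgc
Dnajc3: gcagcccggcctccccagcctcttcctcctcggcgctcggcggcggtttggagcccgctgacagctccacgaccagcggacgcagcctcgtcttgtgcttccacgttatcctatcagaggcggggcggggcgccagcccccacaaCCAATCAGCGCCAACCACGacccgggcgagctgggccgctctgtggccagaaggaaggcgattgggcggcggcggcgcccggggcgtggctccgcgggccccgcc

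In Hspa1a the pair began 104 bases before the start. In Hspe1 the first unit lay 89 bases before the start and overlapping pairs formed a run of GAA units in alternating orientation. The ER stress element began 65 bases before the start of Hspa5 and 105 before that of Dnajc3, whereas Hsp90b1 held 2 copies, 212 and 107 bases before the start. The pair GAANNTTC was found in 12 of the 56 members, against 9.04% of the 27025 genes with a window. It was in 6 of 7 heat-inducible members with a window (Dnaja1, Hspa1a, Hspb1, Hspd1, Hspe1 and Hsph1), in 0 of 5 constitutive members and in 0 of 6 ER chaperones, and also in Dnaja4, Dnajb6, Dnajc27, Hspb3, Hspb6 and Hspb8. Of all 32851 windows, 7.86% held it. A run of 3 units was present in Hspd1, Hspe1, Hsph1 and Dnajb6, and in 0.603% of all windows. The pair TTCNNGAA, which overlaps both other forms in those runs, was found in 6 members and in 8.52% of all windows. The ER stress element was found in 3 members, Hspa5, Hsp90b1 and Dnajc3, which are 3 of the 6 ER chaperones with a window. Of all windows, 0.119% held it. Neither element was thus found in every member of a class or, for the pair, in 1 class alone. A match is a description of the letters in the window and does not show that a factor binds there.

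Markers of the labelled tissue were high in every pool. Over the 4 pools the mean log2 signal of the steroidogenic genes ranged from 13.41 to 13.64 for Star and from 13.81 to 13.91 for Cyp11b1, and that of Th, of the chromaffin cells, from 12.97 to 13.39. In ASP against CON, 2 of 8 cortex markers (Cyp11b2 and Nr5a1), 1 of 7 chromaffin markers (Slc18a1) and 2 of 5 macrophage markers (Cd68 and Adgre1) were called lower, with list medians of -0.16, -0.38 and -0.38, against -0.10 over all genes. In ASP+CGP 0 of these were called. Their part in the falls described below was not tested. The ASP pool stood apart in markers of brain. All 10 neuron, all 7 oligodendrocyte and all 7 astrocyte markers tested were higher in ASP than in CON, and the summed signal of the neuron list was 14.28 to 14.33 on the log2 scale in ASP against 12.16 to 12.23 in CON, 12.13 to 12.19 in CGP and 12.00 to 12.13 in ASP+CGP. Of the 9 hepatocyte markers, 7 were lower in ASP, 7 were higher in CGP and 9 were lower in ASP+CGP. Arrays of the same pool correlated with r of 0.989 to 0.995, and the interquartile range of the ASP+CGP arrays was 2.20 to 2.29 against 2.58 to 2.62 in CON.

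A member was called changed where its adjusted p (limma, Benjamini-Hochberg over all 15900 genes) was under 0.05 and its fold at least 1.4, which is 0.49 on the log2 scale. In ASP against CON, 2 members rose and 4 fell, while 9.81% of all genes tested were higher and 8.13% lower at these thresholds. The members called came to 8.82% of the 68, and all genes called to 17.9%. In CGP against CON 1 member rose and 0 fell, against 1.62% of all genes higher and 0.0189% lower. For ASP+CGP against CON there were 2 members higher and 7 lower, against 6.09% and 8.32% of all genes. Between ASP+CGP and ASP the counts were 5 higher and 7 lower, against 6.55% and 13.3%. Among these 5, Dnajc22 had an ASP mean of 5.78, under the minimum signal of 6. With that mean set to 6 its fold, given below, was under 1.4. For CGP, the 1 call was Dnajc22, and 3 of the 68 members had an unadjusted p under 0.05.

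**Figure D1:**
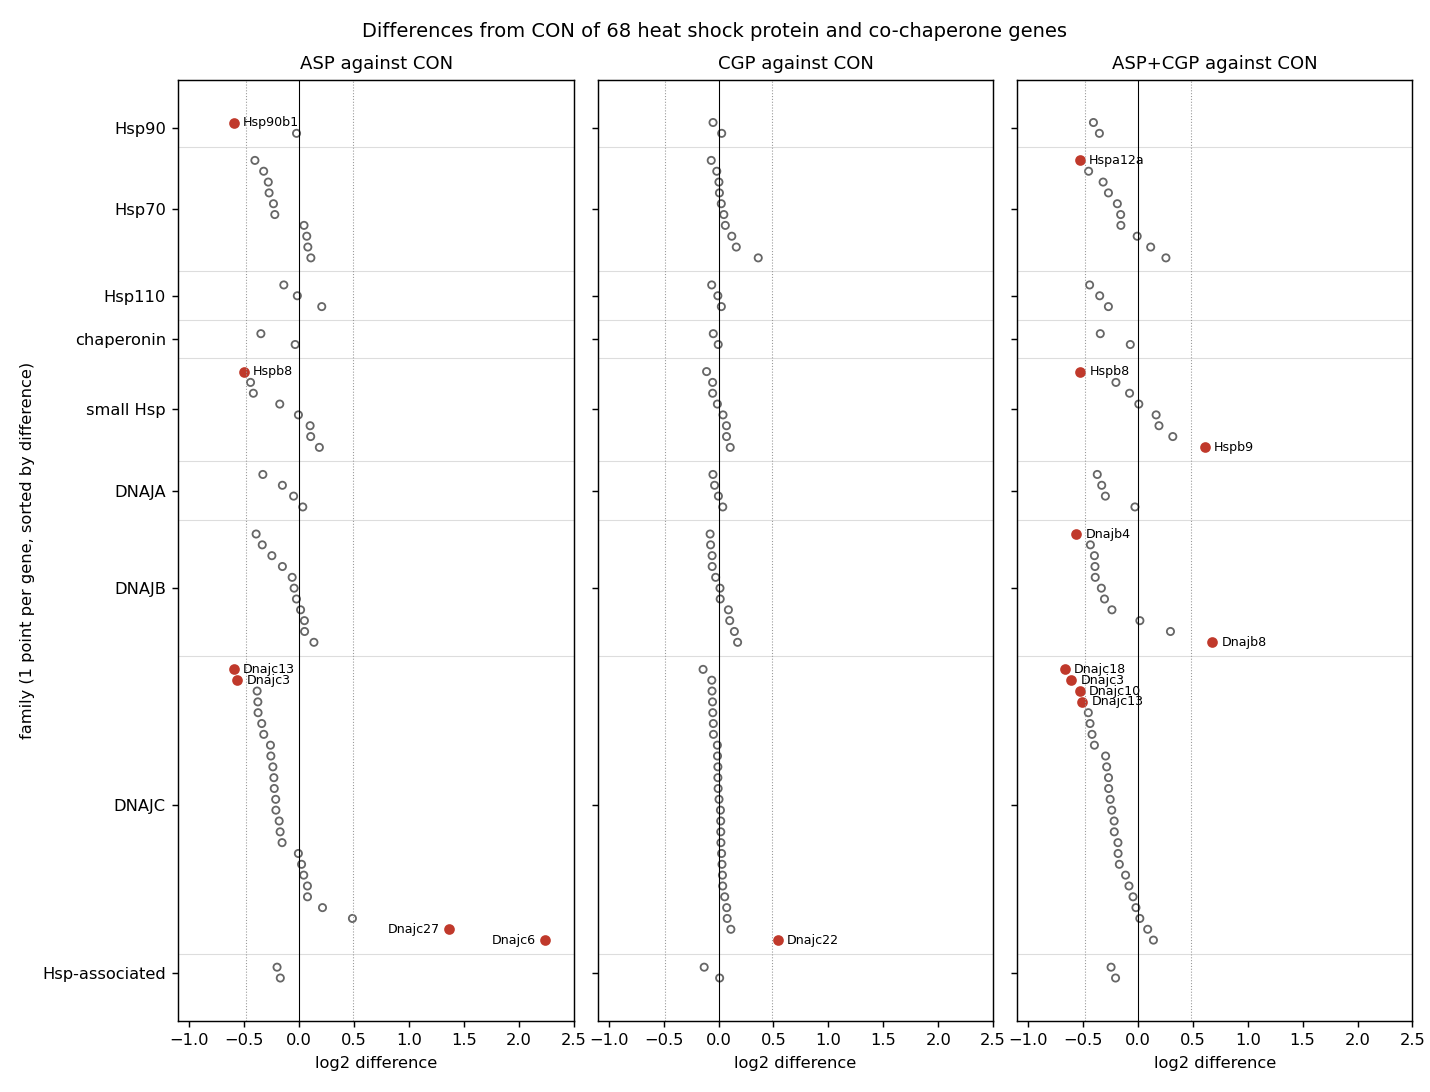
Log2 difference from CON (x axis) of each of the 68 genes, sorted within its family (y axis), in ASP, CGP and ASP+CGP; filled points are genes at an adjusted p under 0.05 and at least 1.4-fold, open points the others, and dotted lines mark 1.4-fold. Dnajc6 and Dnajc27 stand at 2.24 and 1.37 in ASP, while in CGP the points lie near 0 apart from Dnajc22 at 0.54.

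Without a fold minimum many more members passed, mostly lower. At an adjusted p under 0.05 and any fold, 5 members were higher and 33 lower in ASP (7.35% and 48.5% of the members, against 17.6% and 37.7% of all genes). In CGP 2 were higher and 0 lower, against 2.81% and 0.208% of all genes. The ASP+CGP pool had 5 higher and 43 lower (63.2% lower), against 22.3% and 50.4% of all genes. Against ASP, 13 members were higher and 22 lower in ASP+CGP, where all genes gave 30% and 33.1%. The median log2 difference of the 68 members was -0.16 in ASP and -0.25 in ASP+CGP, beside -0.10 and -0.17 over all genes tested. In CGP both medians were within 0.01 of 0.

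Differences from CON varied with signal level. Of the 68 genes, 50 had a CON mean of 8 or more, and their median difference was -0.16 in ASP and -0.31 in ASP+CGP, while the 8516 genes tested at that level had medians of -0.18 and -0.30. In the 11 members with a CON mean under 7 the medians were -0.01 and 0.17, beside 0.01 and 0.27 for all genes. The 7 members between 7 and 8 had medians of -0.22 and -0.17, beside -0.08 and -0.06, lower than genes of like signal. The 7 members at 11 or more had -0.28 in ASP, beside -0.15, and -0.19 in ASP+CGP, beside -0.22, lower than genes of like signal in ASP but not in ASP+CGP. Cyclic loess between arrays, which takes out such trends with signal, moved the median of all genes from -0.10 to 0.01 in ASP and from -0.17 to -0.01 in ASP+CGP. With it, the members called were 3 higher and 0 lower in ASP and 1 higher and 0 lower in ASP+CGP against CON, while of all 15900 genes 1926 were higher and 479 lower in ASP and 681 higher and 491 lower in ASP+CGP. Between ASP+CGP and ASP, 4 of the 12 calls held after cyclic loess, those of Dnajc6, Dnajc27, Dnajc18 and Hspa1a, and over all genes 490 were higher and 2039 lower. The members' falls against CON below, at the probe set chosen for each, are therefore falls on the deposited scale that were under 1.4-fold after cyclic loess. Cyclic loess values for other probe sets of the members are not given here.

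**Figure D2:**
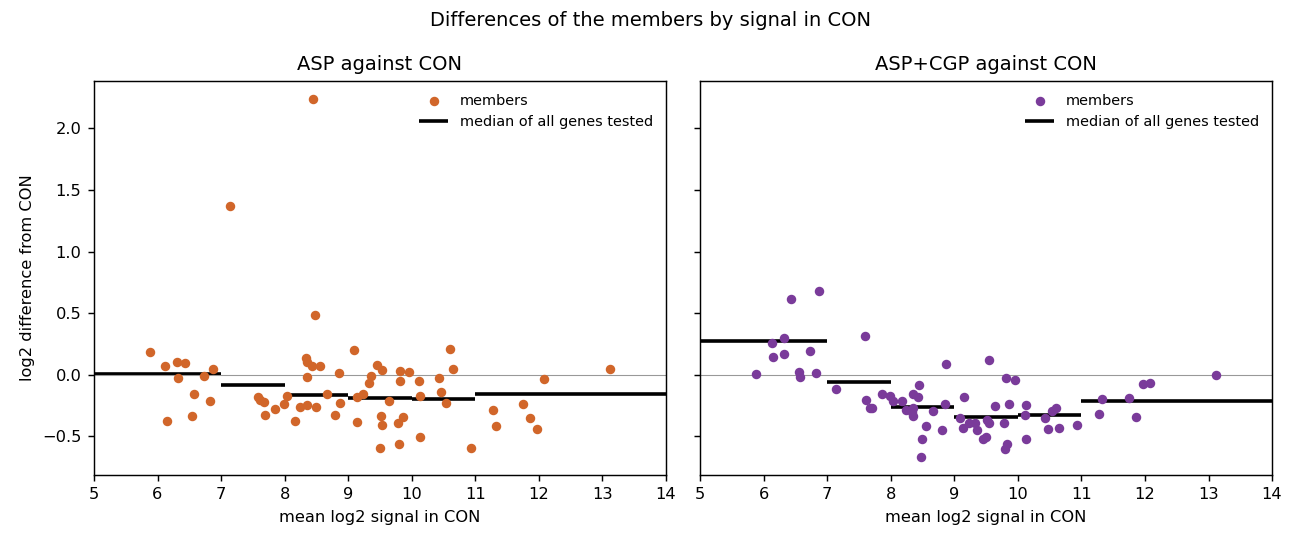
Log2 difference from CON (y axis) of the 68 members in ASP and in ASP+CGP (points, 1 per gene) against mean log2 signal in CON (x axis), with black bars for the median of all genes tested in each range of signal. Most members lie around the bars, whereas Dnajc6 and Dnajc27 in ASP stand above them by more than 1 log2 unit.

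The largest changes were in J proteins of the DNAJC family in the ASP pool. Dnajc6 encodes auxilin, the neuron-rich J protein that recruits Hsp70 to strip clathrin from coated vesicles. Its signal was 8.43, 8.47 and 8.42 in CON, 8.53, 8.57 and 8.55 in CGP, 10.61, 10.71 and 10.72 in ASP and 8.26, 8.58 and 8.24 in ASP+CGP. The 3 ASP arrays lay more than 2 log2 units above the 9 others, among which the CON and CGP arrays all fell within the range of ASP+CGP. Dnajc6 was 4.72-fold higher in ASP than in CON (log2 difference 2.24 ± 0.08 SE with 3 arrays a pool, limma adjusted p = 4.41e-12) and 4.99-fold lower in ASP+CGP than in ASP (-2.32 ± 0.08). Dnajc27, a small GTPase of the Rab type with a J domain, was also high in ASP alone. Signals of 7.03, 7.18 and 7.20 in CON, 7.02, 7.13 and 7.07 in CGP, 8.44, 8.59 and 8.47 in ASP and 7.03, 7.10 and 6.95 in ASP+CGP were measured. It was 2.58-fold higher in ASP than in CON (1.37 ± 0.07, limma adjusted p = 2.21e-10) and 2.79-fold lower in ASP+CGP than in ASP (-1.48 ± 0.07). These calls held in all 26 alternative settings, cyclic loess included. The neuron, oligodendrocyte and astrocyte markers given above had the same pattern over the pools, with medians of 2.01, 2.84 and 2.23 on the log2 scale in ASP against CON. Their part in the result for Dnajc6 and Dnajc27 was not tested, and in pooled tissue more cells of a type cannot be told apart from more RNA per cell.

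Dnajc18, a J protein of the ER membrane, was the third member with a large difference between the aspartame pools. On the arrays it read 8.34, 8.53 and 8.56 in CON, 8.42, 8.65 and 8.45 in CGP, 8.97, 9.06 and 8.86 in ASP and 7.60, 7.96 and 7.88 in ASP+CGP. ASP lay above and ASP+CGP below all CON arrays. ASP differed from CON by 0.48 ± 0.10 SE (limma adjusted p = 0.000566), just under the fold minimum, and passed it with arrays centred on their medians or after cyclic loess. ASP+CGP was 2.22-fold below ASP (-1.15 ± 0.10, limma adjusted p = 1.13e-07), a call that held in all 26 alternatives. Against CON it was 1.59-fold lower (-0.67 ± 0.10), or -0.44 after cyclic loess. The part of the brain markers in these differences was not tested.

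Of the members known to be rich in brain, 4 made up a list, and the other 3 differed from CON in ASP by far less than Dnajc6. Dnajc5, the cysteine string protein of synaptic vesicles, had signals of 10.56 to 10.65 in CON, 10.57 to 10.62 in CGP, 10.74 to 10.85 in ASP and 10.29 to 10.37 in ASP+CGP. It was higher by 0.21 ± 0.05 in ASP, under 1.4-fold. Hspa12a is a distant relative of Hsp70. Log2 signals were 9.44, 9.40 and 9.51 in CON, 9.43, 9.37 and 9.37 in CGP, 9.56, 9.52 and 9.51 in ASP and 8.88, 9.06 and 8.84 in ASP+CGP. The ASP arrays of Hspa12a were at 0.08 ± 0.06 SE from CON (adjusted p = 0.323), and ASP+CGP fell 1.52-fold from ASP (-0.60 ± 0.06) and 1.44-fold from CON (-0.53 ± 0.06). Dnajb2, a J protein of neurons with ubiquitin-binding motifs, was at -0.06 ± 0.06 in ASP and -0.39 ± 0.06 in ASP+CGP. All 4 were lower in ASP+CGP than in ASP at an adjusted p under 0.05, and 2 of the 4, Dnajc6 and Hspa12a, at 1.4-fold, against 33.1% and 13.3% of all genes.

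**Figure D3:**
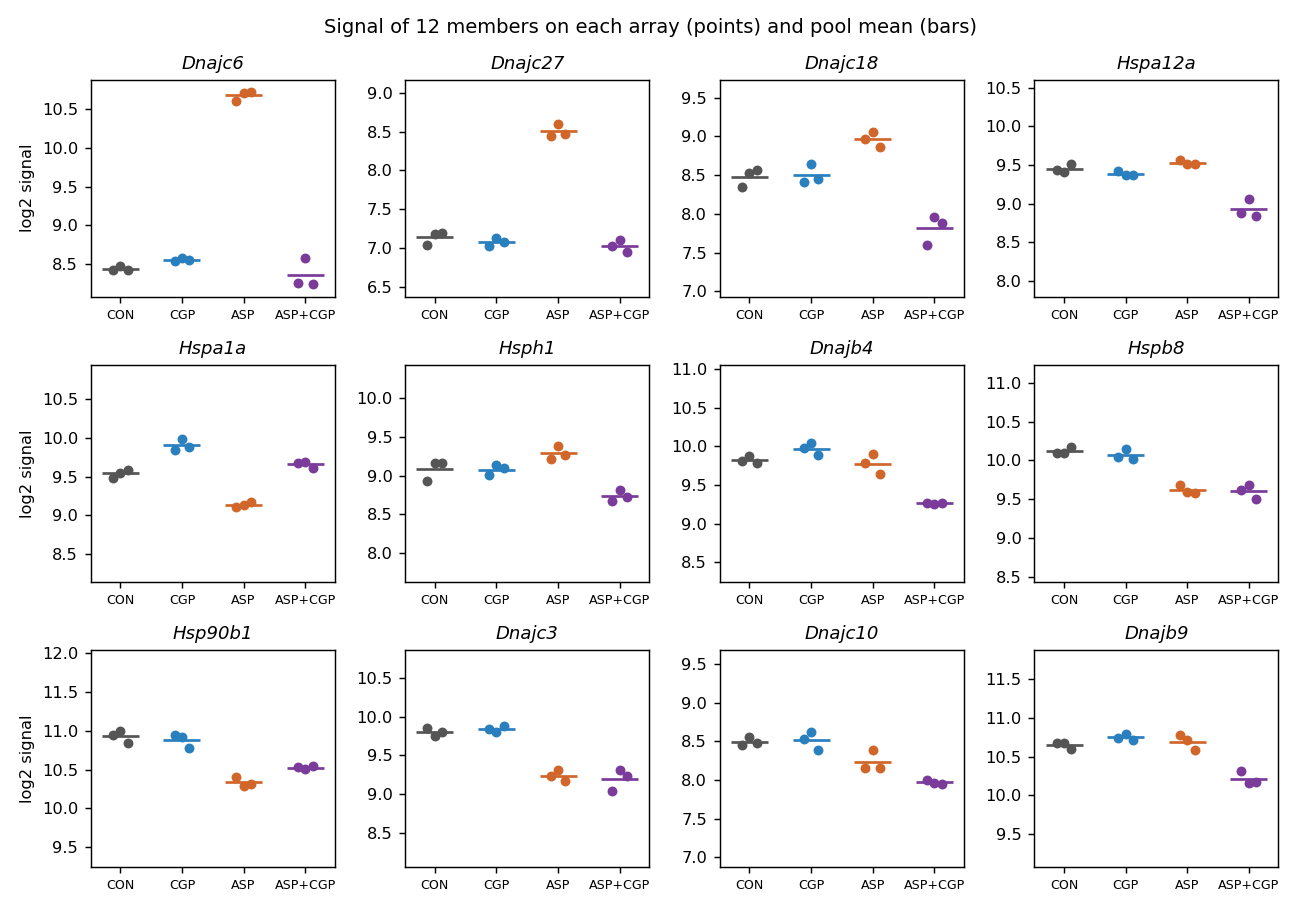
Log2 signal (y axis, each panel spanning 2.8 log2 units) of 12 members on each array of the 4 pools (x axis); points are arrays, 3 per pool, and bars are pool means. Dnajc6 and Dnajc27 are high in ASP alone, Dnajc18 is high in ASP and low in ASP+CGP, Hspa1a is lowest in ASP and highest in CGP, and Hspb8, Hsp90b1 and Dnajc3 are lower in both aspartame pools.

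The heat-inducible class did not move as 1 group. It held Hspa1a, Hsp90aa1, Hsph1, Hspb1, Dnajb1, Dnaja1, Hspd1 and Hspe1 (8 of 9 listed genes, since Hspa1b had no single-symbol probe set). In ASP against CON 0 of 8 were called, against 17.9% of all genes. At an adjusted p under 0.05 and any fold, 1 of the 8 was higher and 4 were lower, against 17.6% and 37.7%. In CGP 0 of 8 were called, against 1.64% of all genes, and 1 was higher at that p, against 2.81%. In ASP+CGP 0 were called, against 14.4% of all genes, and 4 were lower at that p, against 50.4%. In a list of 8, 1 gene makes 12.5%. Its median log2 difference was -0.10 in ASP, 0.01 in CGP and -0.21 in ASP+CGP.

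Hspa1a, the classical gene of the heat shock response, had its own pattern over the pools. Array values were 9.48, 9.55 and 9.59 in CON, 9.84, 9.98 and 9.88 in CGP, 9.10, 9.13 and 9.18 in ASP and 9.68, 9.69 and 9.61 in ASP+CGP. No 2 pools overlapped, and the order from low to high was ASP, CON, ASP+CGP and CGP. The neighbours CON and ASP+CGP differed by 0.12 ± 0.06 SE, with an adjusted p of 0.0811. Against CON, ASP was lower (log2 difference -0.40 ± 0.06, limma adjusted p = 3.28e-05) and CGP higher (0.36 ± 0.06, adjusted p = 0.00121), both under 1.4-fold. ASP+CGP was 1.43-fold above ASP (0.52 ± 0.06, adjusted p = 2.84e-06), and after cyclic loess the difference was 0.67.

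A second probe set, listed for both Hspa1a and its near-identical copy Hspa1b, had the same order of pool means. Its signals were 10.49, 10.54 and 10.60 in CON, 10.79, 10.81 and 10.81 in CGP, 9.84, 9.98 and 9.90 in ASP and 10.49, 10.75 and 10.58 in ASP+CGP. In a fit over all 26533 probe sets it was lower in ASP than in CON (log2 difference -0.64 ± 0.07 SE, limma adjusted p = 1.99e-05) and higher by 0.70 ± 0.07 in ASP+CGP than in ASP (adjusted p = 9.28e-06), both past 1.4-fold. In that fit 9.02% of probe sets were lower in ASP than in CON and 10.4% higher in ASP+CGP than in ASP. The 2 copies cannot be told apart in this probe set.

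Hspb1, the small heat shock protein also known as Hsp25, was likewise lowest in ASP. By pool, signals were 11.95, 12.01 and 11.96 in CON, 11.97, 12.09 and 12.07 in CGP, 11.52, 11.52 and 11.55 in ASP and 11.93, 11.98 and 11.79 in ASP+CGP. The ASP arrays were below all others, at -0.44 ± 0.06 from CON (adjusted p = 2.03e-05, 1.36-fold), and ASP+CGP was at 0.37 ± 0.06 from ASP. A second Hspb1 probe set gave -0.45 and 0.37. By contrast Hsph1, the inducible Hsp110 that exchanges nucleotide on Hsp70, was highest in ASP. The 3 arrays gave 8.93, 9.16 and 9.16 in CON, 9.004, 9.14 and 9.10 in CGP, 9.22, 9.38 and 9.27 in ASP and 8.68, 8.82 and 8.72 in ASP+CGP. It was higher by 0.20 ± 0.07 in ASP (adjusted p = 0.0289, under 1.4-fold) and fell 1.47-fold between ASP and ASP+CGP (-0.55 ± 0.07), or -0.42 after cyclic loess, which is under 1.4-fold. Hspa1a and Hsph1 thus moved in opposite directions in the same comparison of ASP+CGP with ASP.

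Dnajb1, the inducible J protein partner of Hsp70, was highest in CGP. Its signal was 9.24, 9.18 and 9.28 in CON, 9.46, 9.40 and 9.36 in CGP, 9.06, 9.14 and 9.04 in ASP and 8.85, 8.91 and 8.77 in ASP+CGP. Its difference in CGP was 0.17 ± 0.06 (adjusted p = 0.217), while ASP+CGP was at -0.39 ± 0.06 from CON, lower but under 1.4-fold. Hsp90aa1, the inducible cytosolic Hsp90, was lowest in ASP+CGP. Signals of 10.32, 10.47 and 10.50 in CON, 10.46, 10.47 and 10.45 in CGP, 10.34, 10.45 and 10.42 in ASP and 10.10, 10.08 and 10.06 in ASP+CGP were measured. The ASP+CGP arrays were below all others, with a difference of -0.35 ± 0.06 from CON. Its constitutive twin Hsp90ab1 was not analysed here. Dnaja1, a cytosolic J protein, had overlapping pools at its chosen probe set. On the arrays it read 9.83, 9.85 and 9.78 in CON, 9.87, 9.83 and 9.60 in CGP, 9.99, 9.80 and 9.77 in ASP and 9.86, 9.69 and 9.82 in ASP+CGP. Its other probe sets differed from this one. A second single-symbol probe set was at -0.23 ± 0.10 in ASP and -0.22 ± 0.10 in ASP+CGP, and one listed for both Mir207 and Dnaja1 at 0.33 ± 0.11 and 0.76 ± 0.11 (limma over all probe sets, adjusted p = 0.0359 and 0.000294). No direction is given for Dnaja1.

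The mitochondrial chaperonin consists of Hspd1 (Hsp60) and its lid Hspe1 (Hsp10), which share a promoter region as shown above. Hspd1 was lower in both aspartame pools. Log2 signals were 11.86, 11.88 and 11.83 in CON, 11.87, 11.81 and 11.75 in CGP, 11.49, 11.59 and 11.44 in ASP and 11.57, 11.49 and 11.49 in ASP+CGP. It differed from CON by -0.35 ± 0.06 in ASP and -0.34 ± 0.06 in ASP+CGP. For Hspe1 all pools overlapped. Array values were 12.15, 12.11 and 11.99 in CON, 12.17, 12.08 and 12.003 in CGP, 12.09, 12.10 and 11.95 in ASP and 12.03, 11.95 and 12.07 in ASP+CGP. Its adjusted p was 0.666 and 0.363 in the same comparisons, with differences of -0.04 ± 0.07 and -0.07 ± 0.07. Another Hspd1 probe set had larger differences, -0.71 ± 0.07 in ASP and -0.64 ± 0.07 in ASP+CGP (limma over all probe sets, adjusted p = 1.85e-05 and 8.97e-05). Both passed 1.4-fold, where 9.02% of probe sets were lower in ASP and 9.56% in ASP+CGP. The size of the difference in Hspd1 thus depended on the probe set.

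Hspa8, the cognate Hsp70 of the cytosol and a constitutive member, differed little at its chosen probe set. By pool, signals were 13.13, 13.13 and 13.10 in CON, 13.15, 13.15 and 13.09 in CGP, 13.16, 13.19 and 13.14 in ASP and 13.09, 13.11 and 13.14 in ASP+CGP. The ASP arrays lay just above those of CON and ASP+CGP and overlapped CGP, and the log2 differences from CON were 0.04 ± 0.05 in ASP, 0.01 ± 0.05 in CGP and -0.01 ± 0.05 in ASP+CGP. Of its 3 single-symbol probe sets, the others were at 0.04 and -0.07 in ASP and at -0.04 and -0.13 in ASP+CGP. Another 2 probe sets, listed for Hspa8 together with Snord14c and Snord14d, were both at -0.52 ± 0.07 in ASP+CGP. The listed genes cannot be told apart in those 2. Hspa4, an Hsp110 of the cytosol, was lower in both aspartame pools. The 3 arrays gave 10.44, 10.52 and 10.45 in CON, 10.46, 10.39 and 10.36 in CGP, 10.31, 10.37 and 10.30 in ASP and 10.06, 10.03 and 9.996 in ASP+CGP. Its differences from CON were -0.14 ± 0.05 in ASP and -0.44 ± 0.05 in ASP+CGP. Dnajc7, a J protein that also binds Hsp90, was lower in ASP+CGP alone. Its signal was 9.32, 9.36 and 9.40 in CON, 9.34, 9.34 and 9.25 in CGP, 9.27, 9.44 and 9.35 in ASP and 8.90, 8.98 and 8.84 in ASP+CGP. It lay at -0.01 ± 0.06 in ASP and -0.45 ± 0.06 in ASP+CGP. Dnaja2, another cytosolic partner of Hsp70, had the same pattern. Signals of 10.14, 10.09 and 10.12 in CON, 10.08, 10.13 and 10.14 in CGP, 10.05, 10.09 and 10.06 in ASP and 9.75, 9.80 and 9.82 in ASP+CGP were measured. The ASP+CGP arrays were below all others, at -0.33 ± 0.05 from CON.

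The mitochondrial pair Hspa9 (mortalin) and its J protein Dnaja3 differed together in both aspartame pools. On the arrays it read 11.26, 11.30 and 11.26 in CON, 11.30, 11.40 and 11.26 in CGP, 10.94, 11.08 and 10.95 in ASP and 10.98, 10.97 and 10.92 in ASP+CGP. Hspa9 thus lay below all CON and CGP arrays in both, with a difference of -0.28 ± 0.06 in ASP and -0.32 ± 0.06 in ASP+CGP. Dnaja3 was likewise below CON and CGP in both. Log2 signals were 9.51, 9.52 and 9.51 in CON, 9.52, 9.50 and 9.63 in CGP, 9.08, 9.23 and 9.22 in ASP and 9.19, 9.10 and 9.14 in ASP+CGP. Its differences were -0.33 ± 0.06 and -0.37 ± 0.06.

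Hspa14 and Dnajc2 act on the ribosome as Hsp70 and J protein. For Hspa14, both aspartame pools were below CON. Array values were 7.66, 7.63 and 7.75 in CON, 7.61, 7.67 and 7.71 in CGP, 7.53, 7.49 and 7.35 in ASP and 7.38, 7.48 and 7.38 in ASP+CGP. The differences were -0.22 ± 0.06 in ASP and -0.27 ± 0.06 in ASP+CGP. Dnajc2 was lower in ASP alone at an adjusted p under 0.05. By pool, signals were 6.46, 6.66 and 6.61 in CON, 6.59, 6.63 and 6.62 in CGP, 6.47, 6.39 and 6.41 in ASP and 6.54, 6.59 and 6.55 in ASP+CGP. Its difference in ASP was -0.16 ± 0.06, with 1 CON array inside the range of ASP. Of the 8 constitutive members 0 were called in any pool against CON, beside 17.9% (ASP), 1.64% (CGP) and 14.4% (ASP+CGP) of all genes. At an adjusted p under 0.05, 5 were lower in ASP, 0 in CGP and 6 in ASP+CGP, against 37.7%, 0.208% and 50.4% of all genes.

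The 2 classes differed little. The median of the heat-inducible list minus that of the constitutive list was 0.053 in ASP (SD over 3 arrays 0.047), 0.0095 in CGP (SD 0.021) and 0.11 in ASP+CGP (SD 0.042). On single arrays the difference ranged from 0.00059 to 0.086 in ASP and from 0.055 to 0.14 in ASP+CGP, while the CON arrays ranged from 0.0052 to 0.022 against their own mean. The value was above 0 on all 12 arrays, but on the CON arrays it is held near 0, since differences are taken from the CON mean. Over the pools it was largest in ASP+CGP, although the highest ASP array (0.086) lay above the lowest ASP+CGP array (0.055). These medians describe lists chosen with the data known and were not tested.

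**Figure D4:**
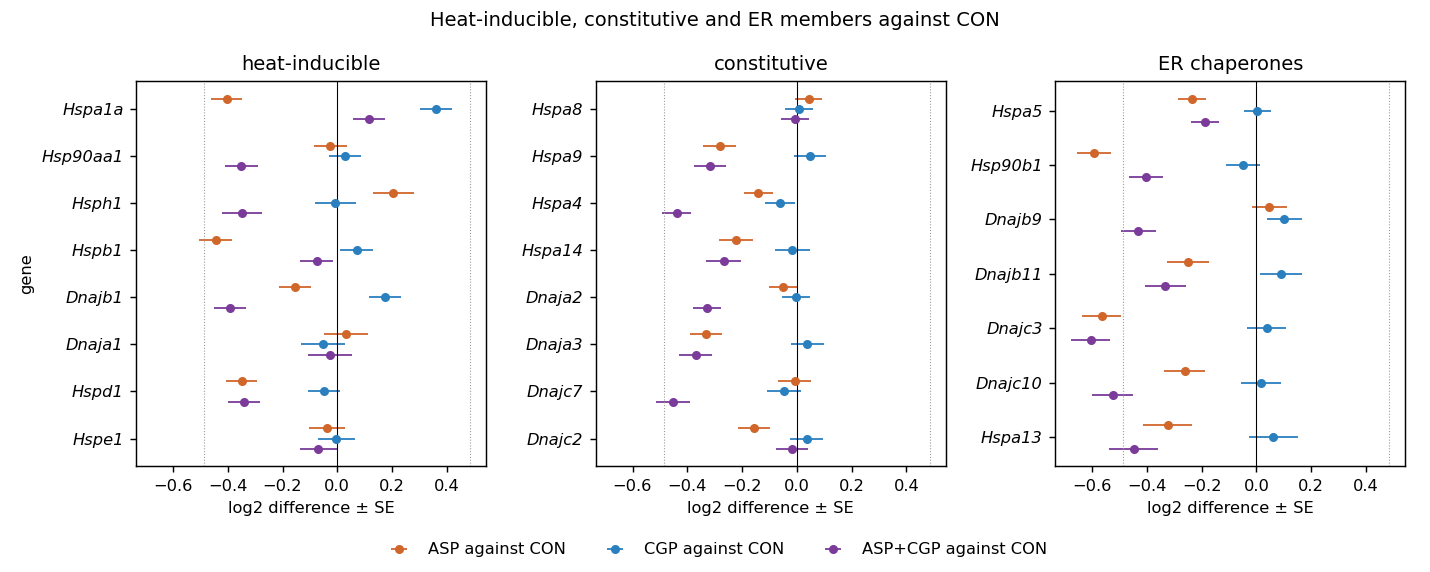
Log2 difference from CON with its standard error (x axis) for each heat-inducible, constitutive and ER member (y axis) in the ASP, CGP and ASP+CGP pools; dotted lines mark 1.4-fold. Hspa1a and Hspb1 lie to the left in ASP and near or right of 0 in the other pools, Hspa8 stays near 0, and ER members other than Dnajb9 lie left of 0 in both aspartame pools.

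Most chaperones of the ER were lower in both aspartame pools. Of 7 members, 2 fell in ASP and 2 in ASP+CGP, against 8.13% and 8.32% of all genes. At an adjusted p under 0.05 and any fold, 6 were lower in ASP, 0 in CGP and 7 in ASP+CGP, against 37.7%, 0.208% and 50.4% of all genes. The list's median was -0.26 in ASP, 0.04 in CGP and -0.43 in ASP+CGP, against -0.10, 0.00 and -0.17 over all genes tested. All 7 had a CON mean of 8 or more, where the medians of all genes were -0.18 in ASP and -0.30 in ASP+CGP. Hsp90b1 (Grp94), the Hsp90 of the ER lumen, changed most in ASP. The 3 arrays gave 10.94, 11.001 and 10.85 in CON, 10.94, 10.92 and 10.78 in CGP, 10.40, 10.29 and 10.32 in ASP and 10.54, 10.50 and 10.54 in ASP+CGP. ASP and ASP+CGP lay below all CON and CGP arrays. Hsp90b1 was 1.51-fold lower in ASP (-0.59 ± 0.06, limma adjusted p = 1.44e-06) and, at -0.40 ± 0.06, under 1.4-fold lower in ASP+CGP. After cyclic loess its difference in ASP was -0.44. Dnajc3, a lumenal co-chaperone known as P58IPK, had the same ER stress element and also fell. Its signal was 9.86, 9.75 and 9.80 in CON, 9.84, 9.80 and 9.88 in CGP, 9.24, 9.31 and 9.17 in ASP and 9.04, 9.31 and 9.24 in ASP+CGP. It was 1.48-fold lower in ASP (-0.56 ± 0.07) and 1.52-fold lower in ASP+CGP (-0.61 ± 0.07), or -0.39 and -0.28 after cyclic loess.

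Hspa5 (BiP), the Hsp70 of the ER lumen and the third gene with that element, differed by less. Signals of 11.74, 11.78 and 11.75 in CON, 11.78, 11.75 and 11.74 in CGP, 11.50, 11.57 and 11.49 in ASP and 11.58, 11.58 and 11.55 in ASP+CGP were measured. Its differences of -0.24 ± 0.05 in ASP and -0.19 ± 0.05 in ASP+CGP were under 1.4-fold, although no ASP or ASP+CGP array reached the CON arrays. Dnajc10, a J protein that reduces disulfide bonds, fell 1.44-fold in ASP+CGP. On the arrays it read 8.45, 8.55 and 8.47 in CON, 8.53, 8.62 and 8.38 in CGP, 8.16, 8.38 and 8.15 in ASP and 7.999, 7.97 and 7.94 in ASP+CGP. The ASP arrays lay between those of CON and ASP+CGP, at -0.26 ± 0.07 from CON, and ASP+CGP at -0.52 ± 0.07 (-0.33 after cyclic loess). Dnajb9 (ERdj4), a J protein of BiP and of ER-associated degradation, differed from the rest of the list. Log2 signals were 10.67, 10.68 and 10.60 in CON, 10.75, 10.80 and 10.71 in CGP, 10.78, 10.72 and 10.59 in ASP and 10.31, 10.16 and 10.18 in ASP+CGP. In ASP it was 0.05 ± 0.06 from CON (adjusted p = 0.566), and in ASP+CGP -0.43 ± 0.06. Dnajb11 (ERdj3), a lumenal partner of BiP, was lower in both aspartame pools. Array values were 8.24, 8.47 and 8.35 in CON, 8.34, 8.52 and 8.46 in CGP, 7.97, 8.21 and 8.13 in ASP and 8.05, 8.05 and 7.97 in ASP+CGP. It differed from CON by -0.25 ± 0.08 in ASP and -0.33 ± 0.08 in ASP+CGP. Hspa13, an Hsp70 of the microsomes, did likewise. By pool, signals were 8.74, 8.86 and 8.80 in CON, 8.76, 9.02 and 8.81 in CGP, 8.54, 8.57 and 8.31 in ASP and 8.30, 8.51 and 8.24 in ASP+CGP. Its differences were -0.32 ± 0.09 and -0.45 ± 0.09, under 1.4-fold in both.

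**Figure D5:**
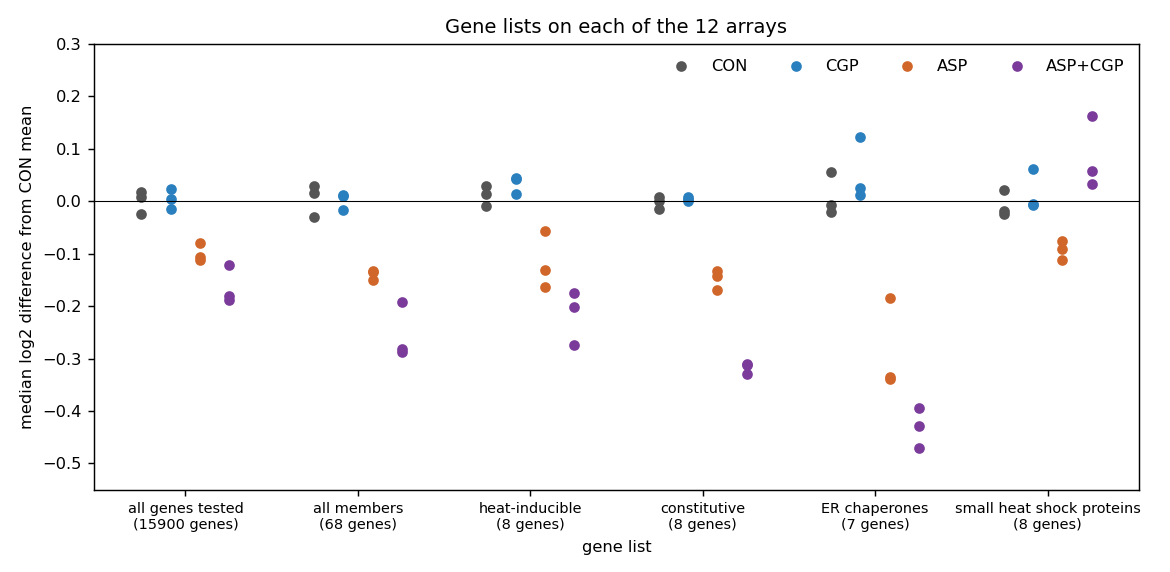
Median log2 difference from the CON mean (y axis) over each gene list (x axis), with 1 point per array in the colour of its pool. The ER chaperones reach -0.47 in ASP+CGP and the constitutive list -0.33. On the same arrays all genes tested lie between -0.19 and -0.12 and the small heat shock proteins between 0.03 and 0.16. The lists hold genes of unlike signal, with Hspb3, Hspb7, Hspb9 and Hspb11 under 7 in CON. In ASP+CGP all genes had a median of 0.27 at a CON mean under 7 and -0.30 at 8 or more.

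The small heat shock proteins split by member. Hspb8, which works with Bag3 in the autophagy of misfolded proteins, fell in both aspartame pools. The 3 arrays gave 10.10, 10.10 and 10.17 in CON, 10.04, 10.14 and 10.02 in CGP, 9.68, 9.59 and 9.59 in ASP and 9.62, 9.69 and 9.50 in ASP+CGP. It was 1.42-fold lower in ASP (-0.50 ± 0.06) and 1.44-fold lower in ASP+CGP (-0.52 ± 0.06). These became -0.33 and -0.20 after cyclic loess. Its partner Bag3, which is no member, also fell in ASP, with a log2 difference of -0.63 ± 0.06. Hspb6, the small heat shock protein of smooth muscle, had 11.28 to 11.38 in CON, 11.23 to 11.30 in CGP, 10.87 to 10.96 in ASP and 11.04 to 11.20 in ASP+CGP and a difference of -0.42 ± 0.06 in ASP. Of 8 muscle markers tested, 2 were called lower in ASP, Tagln and Des, with a median of -0.09 over the 8, and their part in this was not tested. Hspb9, best known from testis, rose in ASP+CGP. Its signal was 6.55, 6.41 and 6.34 in CON, 6.47, 6.31 and 6.49 in CGP, 6.56, 6.48 and 6.56 in ASP and 7.14, 6.93 and 7.07 in ASP+CGP. The 3 ASP+CGP arrays were above the 9 others, and the rise over CON was 1.53-fold (0.61 ± 0.07), which became 0.47 and under 1.4-fold after cyclic loess. Hspb2, rich in muscle, was 1.41-fold higher in ASP+CGP than in ASP (0.50 ± 0.11), with signals of 7.30 to 7.75 in CON, 7.61 to 7.86 in CGP, 7.33 to 7.48 in ASP and 7.79 to 8.06 in ASP+CGP. The call was lost without ASP array 3 and without ASP+CGP array 1. Of 8 muscle markers tested, 0 were called in that comparison, and their median difference was 0.24. Hspb3, Hspb7 and Hspb11 were called in no comparison, with differences from CON between -0.11 and 0.19.

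Dnajb8, another testis-rich J protein that suppresses aggregation, rose beside Hspb9. Signals of 6.81, 6.92 and 6.90 in CON, 6.93, 6.62 and 7.11 in CGP, 6.88, 6.81 and 7.07 in ASP and 7.76, 7.33 and 7.56 in ASP+CGP were measured. It was 1.60-fold higher in ASP+CGP than in CON (0.68 ± 0.12, limma adjusted p = 0.000233) and was the 1 member still called in that comparison after cyclic loess, at 0.60. Of the 6 testis-rich members tested, these 2 rose, and the 6 had a median of 0.28 in ASP+CGP. Hspa1l and Dnajb13 were higher by 0.26 ± 0.07 and 0.30 ± 0.08, under 1.4-fold, while Hspa4l was at -0.27 ± 0.07 and Hspa2 at -0.15 ± 0.09 (adjusted p = 0.14). Dnajb8, Hspb9, Hspa1l and Dnajb13 all had a CON mean under 7, and all genes tested in that range had a median of 0.27 in ASP+CGP.

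Other J proteins differed in the aspartame pools as well. Dnajb4, a cytosolic partner of Hsp70, fell in ASP+CGP alone. On the arrays it read 9.81, 9.88 and 9.78 in CON, 9.97, 10.04 and 9.88 in CGP, 9.78, 9.90 and 9.65 in ASP and 9.27, 9.26 and 9.26 in ASP+CGP. It was 1.47-fold lower than CON (-0.56 ± 0.07) and 1.43-fold lower than ASP (-0.51 ± 0.07), but -0.24 and -0.36 after cyclic loess. Dnajc24, needed for the diphthamide of elongation factor 2, had 8.49 to 8.61 in CON, 8.60 to 8.68 in CGP, 8.56 to 8.69 in ASP and 7.91 to 8.30 in ASP+CGP and was 1.41-fold lower in ASP+CGP than in ASP (-0.49 ± 0.08). This call was lost in 7 of 26 alternatives, among them without ASP array 1, ASP array 3 or ASP+CGP array 1. Dnajc13 (RME-8), a J protein of endosomes, fell in both aspartame pools. Log2 signals were 9.35, 9.49 and 9.68 in CON, 9.44, 9.50 and 9.41 in CGP, 8.88, 9.04 and 8.81 in ASP and 8.94, 9.12 and 8.95 in ASP+CGP. Its differences were -0.59 ± 0.08 in ASP and -0.50 ± 0.08 in ASP+CGP, or 1.51-fold and 1.42-fold. The ASP call was lost with the mean over its probe sets, and the ASP+CGP call in 8 of 26 alternatives, among them that mean, median centring and leaving out CON array 3, ASP+CGP array 1 or ASP+CGP array 3. Its 14 single-symbol probe sets all lay below CON in ASP, between -0.76 and -0.11, and 13 of the 14 in ASP+CGP.

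Dnajc22, a membrane J protein that binds clathrin, was the member called in CGP. Array values were 6.01, 6.19 and 6.26 in CON, 6.88, 6.60 and 6.60 in CGP, 5.89, 5.60 and 5.84 in ASP and 6.32, 6.32 and 6.24 in ASP+CGP. The CGP arrays were above all others, at 0.54 ± 0.09 from CON (1.45-fold, limma adjusted p = 0.00247), and ASP was below all others. Without the first CON array the call was lost, as it was without the first CGP array. Between ASP+CGP and ASP the measured difference was 0.52 ± 0.09, and with the ASP mean of 5.78 set to 6 it was at least 1.23-fold. The summed hepatocyte list was 15.05 to 15.13 on the log2 scale in CGP, 14.50 to 14.54 in CON, 13.80 to 13.83 in ASP and 13.37 to 13.50 in ASP+CGP. Its part in the result for Dnajc22 was not tested.

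Of the 4 DNAJA genes, 0 were called in any of the 5 comparisons, where 1.64% to 24.6% of all genes were called. In a list of 4, 1 gene makes 25%. At an adjusted p under 0.05 1 DNAJA gene was lower in ASP, 0 in CGP and 3 in ASP+CGP. Of all genes, 37.7%, 0.208% and 50.4% were lower at that p. In the DNAJB family the median was -0.05 in ASP and -0.33 in ASP+CGP, and 8 of 11 were lower in ASP+CGP at an adjusted p under 0.05. In the DNAJC family the medians were -0.21 and -0.24, with 15 and 18 of 26 lower at that p, against 37.7% of all genes lower in ASP and 50.4% in ASP+CGP. Dnajc11 and Dnajc15, both of mitochondria, differed by -0.38 ± 0.07 and -0.23 ± 0.07 in ASP and by -0.44 ± 0.07 and -0.29 ± 0.07 in ASP+CGP. Dnajb12, of the ER membrane, was at -0.39 ± 0.06 and -0.40 ± 0.06. Its relative Dnajb14 was at 0.13 ± 0.07 in ASP (adjusted p = 0.119) and -0.30 ± 0.07 in ASP+CGP, but 2 probe sets listed for both Dnajb14 and Pin4 had -0.21 and -0.14 in ASP and 0.02 and 0.07 in ASP+CGP, so no direction is given for it. Dnajc12, which binds the aromatic amino acid hydroxylases, tyrosine hydroxylase among them, was at 0.07 ± 0.06 and -0.18 ± 0.06. Hspa12b, an endothelial relative of Hsp70, was lower in ASP at -0.27 ± 0.08 and was at -0.16 in ASP+CGP. Of 5 endothelial markers, 3 were called lower in ASP and 2 in ASP+CGP, and their part in this was not tested.

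Dnajb6, which keeps polyglutamine proteins soluble, differed by probe set. Its single-symbol probe set had 6.26 to 6.71 in CON, 6.37 to 6.58 in CGP, 6.11 to 6.30 in ASP and 6.50 to 6.61 in ASP+CGP, which gave differences from CON of -0.34 ± 0.10 in ASP and 0.02 ± 0.10 in ASP+CGP. Another 4 probe sets, listed for both Dnajb6 and the predicted gene Gm4247, differed from CON by 0.21 to 0.22 in ASP and by -0.54 to -0.47 in ASP+CGP, the opposite order. No direction is given for Dnajb6.

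The interaction asked whether the aspartame difference was the same with and without CGP 39551. It was the difference of ASP+CGP from CGP minus that of ASP from CON, and 2 members were higher and 8 lower at 1.4-fold, against 9.02% and 15.5% of all genes tested. At any fold, 10 were higher and 20 lower, against 21.9% and 29.5%. Dnajc6 had the largest value (-2.43 ± 0.11 SE, limma adjusted p = 2.39e-10), then Dnajc27 (-1.42 ± 0.09) and Dnajc18 (-1.18 ± 0.13). Dnajb4, Dnajb9, Dnajc24, Hsph1 and Hspa12a had values between -0.66 and -0.54, and Dnajb8 and Hspb9 values of 0.62 and 0.52. Hspa1a was not among them, at 0.16 ± 0.08 (adjusted p = 0.115).

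Of 31 other genes of the HSF1 axis and the cytosolic co-chaperones, 2 rose and 3 fell in ASP, against 9.81% and 8.13% of all genes. Their median difference from CON was -0.14 in ASP and -0.41 in ASP+CGP. Over all genes it was -0.10 and -0.17, and over genes with a CON mean of 8 or more -0.18 and -0.30. Cryab, the small heat shock protein αB-crystallin, rose by 0.90 ± 0.07 on the log2 scale and the heat shock factor Hsf4 by 0.63 ± 0.07. The brain markers were higher in the same pool, and their part in these rises was not tested. Bag3 was at -0.63 ± 0.06, Unc45a, a myosin chaperone that binds Hsp90, at -0.55 ± 0.06 and Fkbp5, an immunophilin of steroid receptor complexes, at -0.50 ± 0.09. In CGP 0 of the 31 were called, against 1.64% of all genes. In ASP+CGP 2 fell, against 8.32% of all genes. These were the Hsp90 co-chaperone Ptges3 (-0.65 ± 0.07) and the chaperonin subunit Cct3 (-0.52 ± 0.07). Compared with ASP, 5 were lower in ASP+CGP, against 13.3% of all genes. Among them were Cryab (-1.06 ± 0.07), Cdc37l1 (-0.72 ± 0.09), Cct8 (-0.60 ± 0.07) and Stip1 (-0.55 ± 0.05), the adaptor that joins Hsp70 to Hsp90.

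Of 24 genes of the unfolded protein response, 0 were called in ASP or CGP, against 17.9% and 1.64% of all genes. In ASP+CGP 2 fell, against 8.32% of all genes. These were Edem1 (-0.58 ± 0.07) and Sel1l (-0.54 ± 0.06), both of ER-associated degradation. The median of the 24 was -0.29 in ASP, near the -0.26 of the ER members, but -0.23 in ASP+CGP, where the ER members had -0.43. Over all genes the medians were -0.10 and -0.17, and over genes with a CON mean of 8 or more -0.18 and -0.30. The mean log2 signal of the 24 was 9.95 to 10.02 on the CON arrays. In ASP+CGP their median was thus not below that of the brighter genes. Of 10 genes of mitochondrial protein quality control, the protease Lonp1 fell in ASP (-0.55 ± 0.06) and the mitochondrial Hsp90 Trap1 in ASP+CGP (-0.54 ± 0.07). Of all genes, 8.13% and 8.32% were lower there. Between ASP+CGP and ASP the import receptor Tomm70a fell (-0.59 ± 0.08), against 13.3% of all genes.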

How the data were processed

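Total RNA of adrenal glands, pooled by group, was hybridised to 12 arrays of the Affymetrix Mouse Gene 1.0 ST type, 3 for each of 4 pools. The deposited log2 values were made by the authors with RMA in the Partek software, which corrects background, equalises array distributions and summarises probes, and they were used as deposited. The precision of each value is limited by the number of arrays. The platform table gave 1 symbol to 17710 of 26533 probe sets, several to 1077 and none to 7746, and genes were named from the first kind only, at the probe set with the highest mean. Genes under 6 in every group mean (344) were not tested. A group-means model over all arrays was fitted with limma 3.58.1 in R 4.3.3 for 5 contrasts, with p-values adjusted by Benjamini-Hochberg within each. On data simulated for ASP against CON over 15900 genes, 57 of 67 genes changed 1.5-fold and 66 of 67 changed 2-fold were recovered, with 2 false calls. The simulation had independent normal noise, few changed genes and no trend with signal. Its false calls therefore do not measure errors that come from such a trend. Named array by array were the members of the heat-inducible, constitutive and ER lists and the 6 members with the largest differences called in each comparison, and others by range. Members and lists were chosen with earlier results of these data known. Promoter sequences came from RefSeq. Alternatives covered filters, scaling, the variance model, the fold minimum, probe set choice, the replicate number as a block and leaving out each array.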

Additional observations from a re-analysis of the deposited data

Results flagged for a closer look

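For 10 members the aspartame difference was not the same with and without CGP 39551 by the interaction test of the same limma model (adjusted p under 0.05 and at least 1.4-fold), where 24.6% of all genes passed. The value given is the log2 difference with CGP 39551 minus that without it. It was -2.43 for Dnajc6, -1.42 for Dnajc27, -1.18 for Dnajc18, -0.66 for Dnajb4, -0.58 for Dnajb9, -0.57 for Dnajc24, -0.55 for Hsph1 and -0.54 for Hspa12a. For Dnajb8 it was 0.62 and for Hspb9 0.52. The brain markers given in the report had interaction values of the same sign as Dnajc6, with a median of -2.14 over 10 neuron markers, and their part in these values was not tested. After cyclic loess 5 of the 10 were still called, namely Dnajc6 at -2.30, Dnajc27 at -1.54, Dnajc18 at -1.11, Dnajb4 at -0.50 and Dnajc24 at -0.49.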

How the results depend on the processing

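Counts of members called are given in the order ASP, CGP and ASP+CGP against CON, then ASP+CGP against ASP and the interaction. On the deposited scale they were 6, 1, 9, 12 and 10, against 17.9%, 1.64%, 14.4%, 19.9% and 24.6% of all genes. With cyclic loess, and with the trend against signal removed (an alternative chosen after seeing the data), ASP gave 3, ASP+CGP against CON 1 and ASP+CGP against ASP 4. Of all genes, 15.1%, 7.37% and 15.9% were called there with cyclic loess, and 14.9%, 6.11% and 16.1% with the trend removed. With arrays centred on their medians ASP+CGP against CON gave 5, against 13.7% of all genes. ASP then split into 3 higher and 3 lower, where 1615 of all genes were higher and 1109 lower. A group mean of at least 7 left 0 in CGP, against 1.78% of all genes. Without a fold minimum the counts were 38, 2, 48, 35 and 30, against 55.3%, 3.01%, 72.7%, 63.1% and 51.4% of all genes. At 1.8-fold they were 2, 0, 0, 3 and 3, against 6.77%, 0.579%, 1.2%, 6.84% and 8.32% of all genes. Leaving out 1 array in turn gave 6 to 7, 0 to 1, 6 to 12, 10 to 15 and 8 to 14. Of all genes, the same fits called 17.4% to 18.9%, 1.49% to 1.75%, 12% to 20.8%, 17.6% to 23.3% and 22.3% to 27.8%. The call of Dnajc22 in CGP was lost without CON array 1 and without CGP array 1, that of Hspb8 in ASP without CON array 3, and those of Dnajc13, Hspa12a and Hspb8 in ASP+CGP against CON without ASP+CGP array 3, which gave 6. In that comparison Dnajc13 was also lost without CON array 3 and without ASP+CGP array 1. Against ASP, Dnajc24 was lost without ASP array 1, ASP array 3 or ASP+CGP array 1, Hspb2 without ASP array 3 or ASP+CGP array 1, Hspb9 without ASP+CGP array 1, and Dnajb4 and Dnajc22 without ASP array 2. In the interaction, Hspb9 was lost without CON array 1, CGP array 2 or ASP+CGP array 1, Hsph1 without CON array 1, Dnajb8 without CGP array 2 and Dnajc24 without ASP+CGP array 1. The median of heat-inducible minus constitutive members ranged from 0.0147 to 0.0683 in ASP, 0.0068 to 0.0425 in CGP and 0.106 to 0.141 in ASP+CGP. The replicate number as a block gave 6, 1, 9, 12 and 10 and the same members, against 17.9%, 1.63%, 14.4%, 19.9% and 24.6% of all genes. After the pool mean of each gene was subtracted, same-numbered arrays of different pools correlated with r from -0.15 to 0.379 (median 0.082). It was over 0.1 in 8 of 18 pairs. Arrays of different pools and different number had r from -0.386 to 0.281 (median -0.072), over 0.1 in 9 of 36 pairs. The numbers were not taken to pair the arrays. Of 530 values of single members under the other alternatives, 439 stayed on their side of both thresholds, 91 lost the call and 0 reversed. These alternatives include the setting without a fold minimum, under which no call can be lost. They also include the 1.8-fold minimum, which drops calls by its threshold alone, on unchanged values. Where a call was lost under another setting, the cause was not tested. Members dimmer than about 7 are nearest the background of the array and carry the least precise differences.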
